A study of Mus musculus with 6 samples.

Results

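Mboat2 and a set of other phospholipid acyltransferases were followed in induced regulatory T (iTreg) cells with and without miR-31. The members were Mboat1, Mboat2, Agpat1 to Agpat5, Lpcat1 and Gpam, 9 genes of 27029 gene names on the array, and they were taken by matching the name of every non-control probe, which gave 16 of the 40827 named probes. Mboat2 was selected on its measured difference between the same 6 arrays, a higher signal in the miR-31-deficient cells, so that difference is a description and no test is given for it. The other genes were added as phospholipid acyltransferases, and further acyltransferases on the array, such as Mboat7 and Lpcat3, are in the neighbouring lists below.

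The cells came from 6-week-old mice labelled C57BL/6, and every mouse carried loxP-flanked miR-31 alleles (miR-31 fl/fl). In 3 of them, termed cKO, the CD4Cre transgene removed miR-31, and Cre under this promoter acts from the CD4-expressing thymocyte stage onwards, so CD8 T cells lose the gene as well. The 3 controls were age-matched and, by the study's methods, miR-31 fl/fl without Cre, which leaves an effect of Cre itself inside the comparison. Naive splenic CD4+CD25-Foxp3gfp-CD62Lhi T cells of each mouse were stimulated for 4 days with 5 μg/ml plate-bound anti-CD3 and 2 μg/ml soluble anti-CD28, in the presence of TGF-β1 at 5 ng/ml and IL-2, which the sample labels put at 40 ng/ml (the study's methods give another dose). The labels describe no sort of the cells after culture. RNA of each culture was read on its own single-colour Agilent mouse array.

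Phospholipid acyltransferases attach fatty acids to a glycerol backbone and so set which acyl chains a cell's membranes hold. Gpam acylates glycerol phosphate at the mitochondrion, the AGPAT enzymes turn lysophosphatidic acid into phosphatidic acid, the common precursor of membrane phospholipids and triacylglycerol, and the MBOAT and LPCAT enzymes put a fatty acid back on lysophospholipids that have lost one. MBOAT1 and MBOAT2 are membrane-bound enzymes that favour the monounsaturated oleoyl chain, and MBOAT2 acts on lysophosphatidylethanolamine and lysophosphatidylcholine.

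The deleted RNA is shown first, 5′ to 3′ with its seed (bases 2 to 8) in capitals. Its mature sequence in RefSeq lies at chr4:88910614-88910635 on the minus strand of GRCm38.p6.
mmu-miR-31-5p: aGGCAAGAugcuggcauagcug
No array probe is named for miR-31, so its loss could not be checked on these arrays. The letters complementary to the seed, TCTTGCC, occurred in 133 of the 41174 probes (0.323%) and, on the opposite strand, in 176 (0.427%). None of the 16 member probes held them on either strand. A probe covers 60 bases of a transcript, so this says only that the letters are not in these windows.

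The 3 Mboat2 probes are shown by their opening 30 bases, 5′ to 3′, because they lie at separate places and did not behave alike. All sit on the plus strand of chromosome 12 in mm9, probe 1 at chr12:25644123-25644182, probe 2 at chr12:25644406-25644465 and probe 3, which the array annotates with a cDNA clone, at chr12:25611038-25611097. Probes of a gene are numbered from the brightest down, and whether a probe lies in coding sequence or a UTR was not determined.
Mboat2 probe 1: tggaaagggatggtctcggatagggggttt
Mboat2 probe 2: tgttgttcccggatggtatttccaagtgta
Mboat2 probe 3: ttgaccatgattagtaaactaatagagatt
The probe pairs of Agpat2 and Agpat4 are shown because they read overlapping sequence, with the bases that both printed stretches share in capitals. The overlap is 40 of 60 bases for Agpat2 (probe 1 at chr2:26451628-26451687, minus strand) and 54 of 60 for Agpat4 (chr17:12412417-12412476 and chr17:12412423-12412482, plus strand). Each pair is therefore a repeat reading of nearly the same target, not independent evidence.
Agpat2 probe 1: gtggatctacccagagggtaCACGCAACGA
Agpat2 probe 2: CACGCAACGAcaatggggacctgttgccct
Agpat4 probe 1: cgattgCCGGAGACAGAGTGAAAAGTGCTT
Agpat4 probe 2: CCGGAGACAGAGTGAAAAGTGCTTtgggta

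Levels below are log2 processed spot signals minus the 75th percentile of the same array, so 0 is that percentile and each unit is a doubling. The percentile lay between 987 and 1148 signal units, between 49.3% and 57.7% of spots were well above background, and 0 spots were saturated. Levels of different probes are not set against each other, since a probe's brightness also depends on its sequence. A probe was tested where it was well above background on at least 3 of 6 arrays, which left 22281 probes, and 14 of the 16 member probes for 8 of the 9 genes. Slide 1 carried the 3 cKO arrays and control 1, and slide 2 carried controls 2 and 3, so slide and genotype are partly confounded and the difference within slide 1 is given beside the main results. An adjusted p under 0.05 (limma, Benjamini-Hochberg) was reached by 54 of the 22281 tested probes (0.242%), 33 higher and 21 lower in cKO, and 30 of the 54 lay between 0.048 and the threshold. The labels tie each array to an individual mouse.

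Mboat2 had a higher level in every cKO culture than in any control culture. Probe 1 read 711, 1568 and 856 signal units in cKO 1, 2 and 3 and 201, 212 and 88.4 in control 1, 2 and 3, which on the scaled log2 scale was -0.56, 0.58 and -0.21 against -2.52, -2.36 and -3.60. The means were -0.06 ± 0.58 (SD, n = 3) and -2.83 ± 0.67 (SD, n = 3), a difference of 2.76 or 6.79-fold. The lowest cKO array stood 1.80 log2 units above the highest control array, and the spread inside each genotype was wide, with cKO 2 highest and control 3 lowest.

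Probe 2 repeated these values at a site further along the gene. Its levels were -0.50, 0.60 and -0.45 in cKO and -2.73, -2.57 and -3.57 in control, a difference of 2.84 (7.16-fold) with a gap of 2.07 between the groups. Both probes were well above background on all 6 arrays, so neither group sat at the detection limit. Within slide 1 the cKO mean exceeded control 1 by 2.45 at probe 1 and by 2.61 at probe 2. Without cKO 3, to which estimated array weights gave the least weight, probe 1 gave 2.83. Of all tested probes, 3551 (15.9%) had every cKO array above every control array, and 41 (0.184%) had a difference at least as high as that of Mboat2 probe 1, a count given to place a gene that was chosen for this difference.

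Mboat2 probe 3 did not show the separation. It was well above background on none of the 6 arrays, with 16.1, 29.8 and 23.3 signal units in cKO and 15.3, 24.8 and 9.4 in control. These dim readings overlapped between the genotypes and were not tested. In bulk RNA, fewer cells with Mboat2 transcripts and less Mboat2 RNA per cell cannot be told apart, for this gene and for all that follow.

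**Figure D1:**
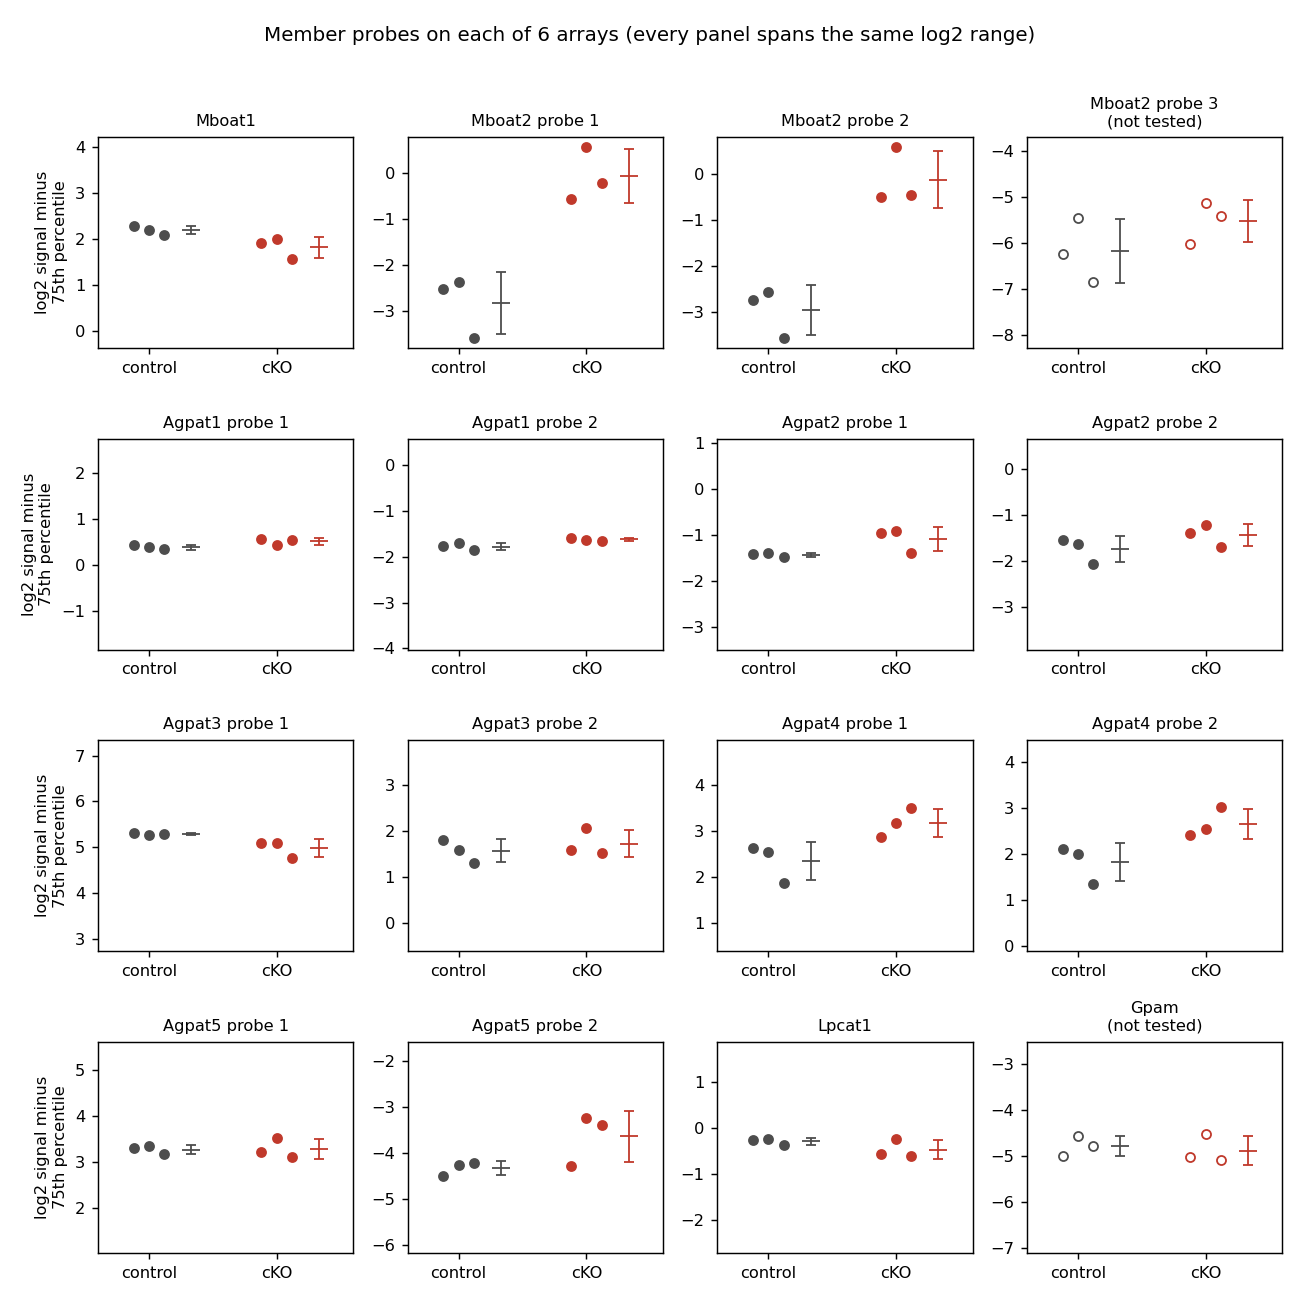
Each panel shows 1 member probe, with log2 signal minus the array's 75th percentile on the vertical axis, a point for each of the 3 control (grey) and 3 cKO (red) arrays, and the mean with its SD beside the points. Every panel spans the same number of log2 units but is centred on its own probe, and open points mark probes that were not tested. Mboat2 probes 1 and 2 separate by 1.80 and 2.07 log2 units, while most other panels are nearly level.

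The remaining members differed far less. Of the 7 other genes that were tested, 0 had an adjusted p under 0.05 at the brightest probe, and the smallest adjusted p among their 12 probes was 0.165 in limma. At an unadjusted p under 0.05, Agpat4 was higher and Mboat1 was lower, against 11.5% of all tested probes higher and 11.4% lower. The groups did not overlap for 1 gene with higher levels in cKO (Agpat4) and for 2 with lower levels (Mboat1 and Agpat3), and 20.7% of all tested probes had every cKO array below every control array. The median difference of the 7 genes was 0.02, beside -0.04 over all tested probes.

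Mboat1, the closest relative of Mboat2 among the members and an acyltransferase of lysophosphatidylethanolamine and lysophosphatidylserine, lay in the other direction. Its only probe (chr13:30338253-30338312, mm9) read 1.91, 1.99 and 1.56 in cKO and 2.28, 2.20 and 2.09 in control. All 3 cKO arrays were below all 3 control arrays, cKO 3 furthest. The difference was -0.37 (95% confidence interval -0.72 to -0.02, unadjusted p = 0.042, adjusted p = 0.208 in limma), or 1.29-fold lower in cKO, and it was -0.46 within slide 1. With the median of each array in place of the 75th percentile the unadjusted p was 0.089, and it was between 0.052 and 0.124 when any array other than cKO 2 was left out.

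Lpcat1, which re-acylates lysophosphatidylcholine and is known for the saturated lecithin of lung surfactant, overlapped between the genotypes. Its probe read -0.57, -0.23 and -0.60 in cKO and -0.26, -0.23 and -0.37 in control. The value of cKO 2 lay at the level of the controls. The difference was -0.18 (95% confidence interval -0.51 to 0.15, adjusted p = 0.432 in limma), so the interval held values on both sides of 0.

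Agpat4, a lysophosphatidic acid acyltransferase with high expression in brain, had the largest difference among the members after Mboat2. Probe 1 read 2.86, 3.16 and 3.49 in cKO and 2.61, 2.53 and 1.86 in control, and the overlapping probe 2 read 2.40, 2.54 and 3.01 against 2.12, 2.00 and 1.35. In both readings cKO 3 was highest and control 3 lowest, and cKO 1 exceeded control 1 by the narrowest margin. The difference was 0.83 at either probe (95% confidence interval 0.21 to 1.46 at probe 1, 1.78-fold, unadjusted p = 0.017, adjusted p = 0.165 in limma). Within slide 1 it shrank to 0.56 and 0.54, and with slide as a term the unadjusted p of probe 1 was 0.178. Leaving out cKO 3 brought the difference of probe 1 to 0.67 with an unadjusted p of 0.059, and normexp background correction with the 75th percentile gave 0.60 (unadjusted p = 0.062).

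Agpat1 and Agpat2 are the major lysophosphatidic acid acyltransferases of the endoplasmic reticulum, and loss of Agpat2 causes lipodystrophy. Agpat1 probe 1 read 0.56, 0.42 and 0.54 in cKO and 0.44, 0.37 and 0.33 in control, groups that overlapped at cKO 2 and control 1. Its difference was 0.13 (95% confidence interval -0.11 to 0.36, adjusted p = 0.441 in limma), and the dimmer probe 2 gave 0.16 (adjusted p = 0.332) with the groups just separated, by 0.06.

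Agpat2 had a wider spread. Probe 1 read -0.96, -0.92 and -1.40 in cKO and -1.42, -1.39 and -1.48 in control, so that 2 cKO arrays stood clear of the controls and cKO 3 lay among them. The difference was 0.34 (95% confidence interval -0.03 to 0.71, adjusted p = 0.240 in limma), and the overlapping probe 2 gave 0.31 (adjusted p = 0.353). Estimated array weights, which put the least weight on cKO 3 (0.17), brought the adjusted p of probe 1 to 0.039. Under those weights 2205 of all tested probes had an adjusted p under 0.05, beside 54 in the main fit.

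The 2 Agpat3 probes went in opposite directions. Agpat3, a Golgi and endoplasmic reticulum enzyme that introduces polyunsaturated chains, was read by probe 1 at 5.10, 5.09 and 4.77 in cKO and at 5.31, 5.27 and 5.30 in control. All cKO values were below the tightly grouped controls, with a difference of -0.30 (95% confidence interval -0.61 to 0.003, unadjusted p = 0.051, adjusted p = 0.220 in limma). Probe 2, at chr10:77734394-77734453 beside chr10:77736442-77736501 for probe 1 (mm9, minus strand), read 1.59, 2.05 and 1.51 in cKO and 1.80, 1.59 and 1.30 in control. Here the groups overlapped and the difference was 0.16 (adjusted p = 0.641), so no direction can be given for the gene.

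Agpat5, a mitochondrial member of the family, also differed between its probes. Probe 1 read 3.23, 3.54 and 3.12 in cKO and 3.30, 3.36 and 3.17 in control, a difference of 0.02 (95% confidence interval -0.33 to 0.36, adjusted p = 0.956 in limma) whose sign changed with the processing. Probe 2 was dim, above background in 3 cKO and 2 control cultures, and read -4.27, -3.24 and -3.39 against -4.51, -4.26 and -4.21. There cKO 2 and cKO 3 were high and cKO 1 lay among the controls, with a difference of 0.69 (unadjusted p = 0.049, adjusted p = 0.217).

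Gpam, the mitochondrial glycerol phosphate acyltransferase that commits fatty acids to glycerolipids, was at the edge of detection. The extraction software marked its probe as well above background in 1 control culture and in 0 cKO cultures, with between 28.9 and 45.3 signal units in cKO and between 35.8 and 45.7 in control. The groups overlapped and the probe was not tested.

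Within slide 1 the brightest probes of Agpat1, Agpat2, Agpat3 and Lpcat1 kept their sign, with 0.07, 0.33, -0.32 and -0.21. Agpat5 was level there at -0.0080, and Agpat3 probe 2 changed sign to -0.08, which again left that probe near 0.

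**Figure D2:**
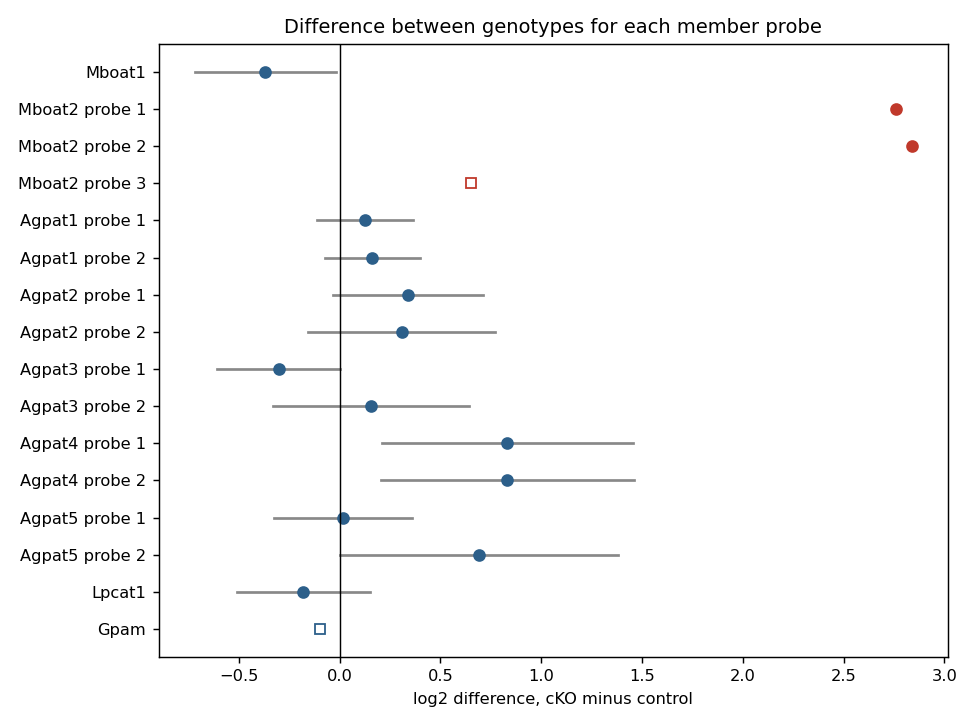
The horizontal axis gives the log2 difference, cKO minus control, of each of the 16 member probes, with bars for the 95% confidence interval of the limma fit. No interval is drawn for Mboat2 (red), whose difference chose it, or for the probes that were not tested (open squares). The points of Mboat2 probes 1 and 2, given as a description, lie at 2.76 and 2.84. Among the intervals drawn, the highest upper end is 1.46, at Agpat4 probe 2.

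**Figure D3:**
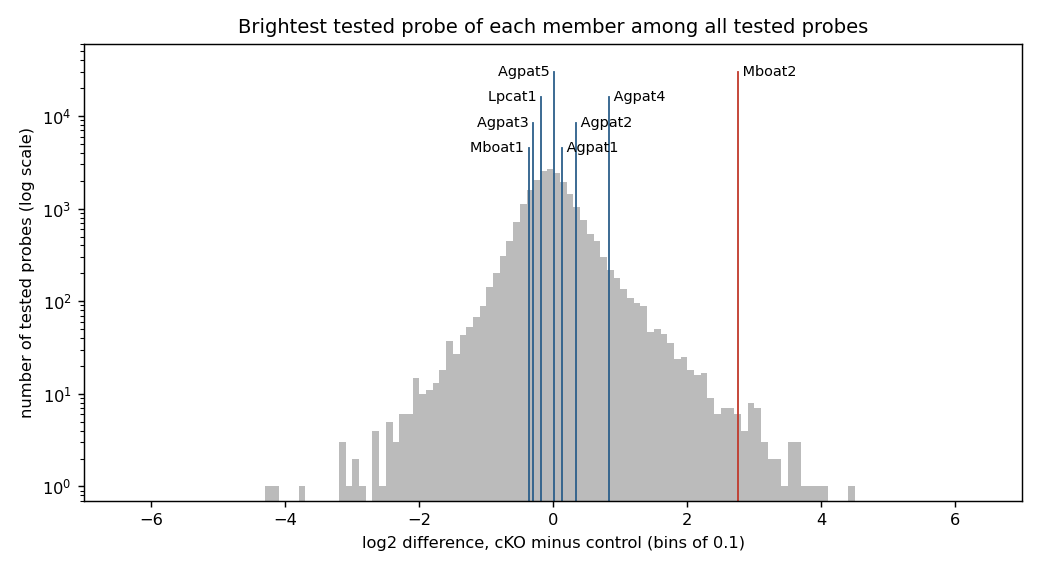
The grey bars count the 22281 tested probes by log2 difference, cKO minus control, in bins of 0.1 on a logarithmic vertical axis, and the vertical lines mark the brightest tested probe of each member. Mboat2 stands in the upper tail at 2.76, Agpat4 at 0.83, and the other 6 lie between -0.37 and 0.34.

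Over the 6 arrays the level of Mboat2 probe 1 had a Pearson correlation of 0.90 with Agpat4, 0.76 with Agpat2, 0.67 with Agpat1, 0.34 with Agpat5, -0.30 with Lpcat1, -0.64 with Mboat1 and -0.74 with Agpat3. These values describe 6 arrays that fall into the 2 genotypes, and they carry the differences given above. Of 14217 genes compared in this way, the 5 most like Mboat2 were Atmin (r = 0.998), 4933427D14Rik (0.998), Lpin1 (0.997), Kdelr3 (0.996) and Arl3 (0.996). Atmin encodes a zinc finger protein linked to the DNA damage kinase ATM, Kdelr3 a receptor that retrieves proteins to the endoplasmic reticulum, and Arl3 a small GTPase of cilia, while Lpin1 is a phosphatidate phosphatase acting directly downstream of the AGPAT enzymes. Likeness here means the shape over the arrays and not the size, since the cKO mean exceeded the control mean by 0.39 for Atmin, 0.09 for 4933427D14Rik and 0.41 for Arl3. Kdelr3 was well above background on no control array, so it passed the filter only through its 3 cKO arrays. It read 63.1, 109.2 and 72.2 signal units in cKO and 19.1, 24.5 and 10.0 in control. All 5 genes were picked for their likeness to Mboat2, so their differences are descriptions.

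The pattern of Lpin1 was close to that of Mboat2 on each array. It read 1.81, 2.48 and 2.17 in cKO and 0.95, 0.91 and 0.37 in control, with cKO 2 highest and control 3 lowest as for Mboat2. Lpin1 was picked here for its likeness to Mboat2, which was chosen for its rise. Its difference is therefore a description, and no test is given for it. That difference was 1.41, it was 1.21 within slide 1, and the other Lpin1 probes gave 1.26 to 1.81.

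The neighbouring steps of glycerolipid metabolism were followed with lists of 68 further genes, of which 67 had a probe and 61 were tested. At the brightest probe, 16 were higher and 6 lower in cKO at an unadjusted p under 0.05, that is 26.2% and 9.84% beside 11.5% and 11.4% of all tested probes, and 39 were past it in neither direction. With adjustment over all tested probes 0 passed, and the smallest adjusted p was 0.058. In 21 genes (34.4%) all cKO arrays were above all controls and in 7 (11.5%) all were below, beside 15.9% and 20.7% of all tested probes. The median difference was 0.16. These counts and this median include Lpin1, which was picked above for its likeness to Mboat2. With slide as a term the number past the unadjusted threshold dropped from 22 to 5, and with normexp background correction and the 75th percentile it was 13. Over all 22281 tested probes the number past it dropped from 5120 to 1646 and 1659 under these settings.

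The phosphatidate phosphatases, which turn the product of the AGPAT enzymes into diacylglycerol, held 6 tested genes. Among them is Lpin1, which was picked above for its likeness to Mboat2 and is not counted here. Of the others, the membrane lipid phosphatases Plpp1 and Plpp2 were higher at an unadjusted p under 0.05 and 0 were lower. Over all tested probes 11.5% were higher and 11.4% lower. Plpp1 read -0.91, -0.80 and -1.17 in cKO and -2.33, -3.01 and -2.52 in control, and the groups were more than a log2 unit apart. Its difference was 1.66 (95% confidence interval 1.16 to 2.15, adjusted p = 0.058 in limma) and 1.37 within slide 1, and the adjusted p moved across the threshold with the processing. It was as low as 0.021 with array weights, under which 2205 of all tested probes passed. It was 0.371 with normexp background correction and the 75th percentile, 0.365 with slide as a term, and between 0.064 and 0.185 with each array left out. Plpp2 gave 1.61 (adjusted p = 0.126), from a control group in which 2 of 3 arrays were well above background, and 0.90 with normexp and quantile normalisation.

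In the choline and ethanolamine branches, which build phosphatidylcholine and phosphatidylethanolamine, 5 of 14 tested genes were higher and 1 lower at an unadjusted p under 0.05. That is 35.7% and 7.14%, beside 11.5% and 11.4% of all tested probes. The lower gene was Etnk1, an ethanolamine kinase, at -0.36 (unadjusted p = 0.015, adjusted p = 0.159 in limma), with all cKO arrays below all controls. Etnk2, the other ethanolamine kinase of the list, read -0.97, -0.01 and -0.11 in cKO and -1.48, -3.06 and -4.24 in control. The groups did not overlap, but the controls were scattered, and the difference of 2.56 (adjusted p = 0.144 in limma) was 1.12 within slide 1, 3.28 without control 1 and 1.91 without control 3. Pcyt1b, which makes CDP-choline, gave 0.84 (adjusted p = 0.306) at its brightest probe and 1.92 (unadjusted p = 0.0020) at another. The mean over its probes was 1.38 (unadjusted p = 0.0051), whereas array weights brought the brightest probe to 0.07. Dgat1, 1 of 2 genes of the final step to triacylglycerol, gave 1.25 (adjusted p = 0.113).

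The lists for glycerol phosphate acylation, other lysophospholipid acyltransferases and the CDP-diacylglycerol branch each held at most 1 gene past the unadjusted threshold. Of all tested probes, 11.5% were past it and higher and 11.4% past it and lower. Of the genes for glycerol phosphate acylation 0 of 3 were past the unadjusted threshold, and Gpat2, which differed most, gave -1.83 (adjusted p = 0.419). Its groups overlapped through control 3, at -5.60 beside -1.35 and -1.11 in the other controls. The cKO arrays were scattered too, with cKO 2 at -6.08 beside -3.92 and -3.54. Leaving out control 3 gave -3.28 (unadjusted p = 0.0079), and leaving out control 1, control 2 or cKO 2 gave -1.16, -1.04 or -1.04. Of the other lysophospholipid acyltransferases 0 of 6 passed it, with 0.49 for Tafazzin, the cardiolipin acyltransferase (adjusted p = 0.222), and 0.24 for Abhd5, the coactivator of a triacylglycerol lipase (adjusted p = 0.226). In the CDP-diacylglycerol branch 1 of 5 was higher, Pgs1, which starts cardiolipin synthesis, at 0.28 (adjusted p = 0.212), and Cds2, which makes CDP-diacylglycerol, gave 0.24 (adjusted p = 0.362) with a sign that turned under other settings.

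Among genes that release or prepare fatty acids 0 had an adjusted p under 0.05. At an unadjusted p under 0.05, 11.5% of all tested probes were higher and 11.4% lower. Of the phospholipases A2 and lysophospholipases 1 of 10 was higher and 2 were lower (10% and 20%). Pla2g4c and Pla2g4f, cytosolic phospholipases, gave 1.28 (adjusted p = 0.239 in limma) and 0.45 (adjusted p = 0.402). The value of Pla2g4c fell to 0.62 without cKO 1, which read -1.53 beside -3.14 and -3.85 in the other cKO arrays. For fatty acid activation and desaturation 3 of 11 were higher and 2 lower (27.3% and 18.2%). Acsl6, which charges fatty acids with coenzyme A, read 0.05, -0.75 and -2.07 in cKO and 0.58, 0.78 and 2.01 in control, all cKO arrays lower, a difference of -2.05 (adjusted p = 0.161 in limma). Fads2, a desaturase of polyunsaturated chains, gave 1.28 (adjusted p = 0.143). Among guards against ferroptosis, a form of death by lipid peroxidation, 2 of 4 were higher and 1 lower, beside the same 11.5% and 11.4%. Aifm2, the ubiquinone reductase FSP1, gave 1.83 (adjusted p = 0.138 in limma). Dhodh, a mitochondrial ubiquinone-reducing enzyme, gave -0.68 (adjusted p = 0.170). The other Aifm2 probe gave 0.34 (unadjusted p = 0.683), and the mean over both was 1.08 (unadjusted p = 0.069).

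**Figure D4:**
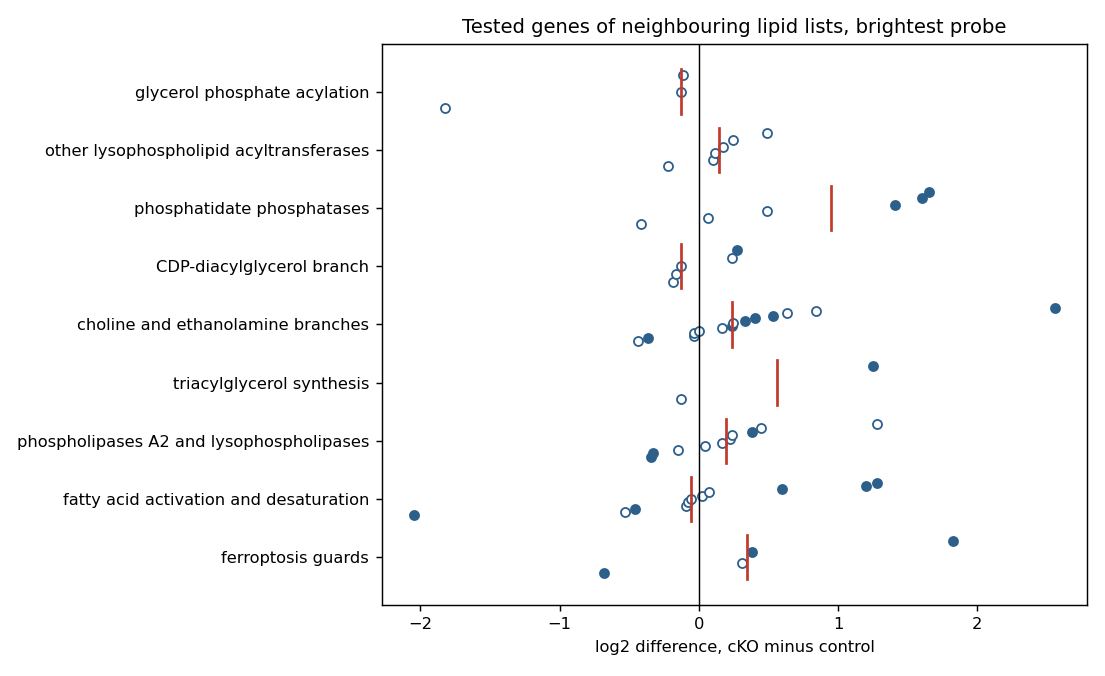
Each point is 1 of the 61 tested genes of the neighbouring lists, placed by its log2 difference, cKO minus control, at its brightest probe. Filled points have an unadjusted p under 0.05 and the red bar is the median of the list, which reaches 0.95 in the phosphatidate phosphatases and lies at -0.13 for glycerol phosphate acylation. The phosphatidate phosphatases include Lpin1, which was picked for its likeness to Mboat2. Its filled point and its part in that median are therefore descriptions.

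The labelled cell type was checked against markers. All 5 T cell genes and all 5 Treg genes were well above background on every array. At an unadjusted p under 0.05, Foxp3 was lower in cKO (-0.62) and Ctla4 higher (0.94), while Itgae (0.85), Tnfrsf18 (0.40) and Il2ra (-0.56) were not past it. Among the T cell genes Cd3g (0.74), Cd4 (0.66) and Cd3d (0.38) were higher and Cd3e (-0.28) was lower at that threshold, Lck (-0.09) was not past it, and none of these 10 had an adjusted p under 0.05 in limma. The summed signal of the T cell genes, in multiples of each array's 75th percentile, was 168 to 211 in cKO and 151 to 159 in control, and that of the Treg genes was 180 to 204 against 139 to 183. Most of each sum came from 1 bright probe, Cd3d for the T cell genes and Tnfrsf18 for the Treg genes. The sums therefore do not describe the lists as a whole, and Foxp3 and Il2ra went the other way. Some genes of other cell types moved with the genotype. The summed signal of 5 epithelial markers, again in multiples of the 75th percentile, was 1.31 to 1.96 in cKO and 0.81 to 0.91 in control. Most of it came from Epcam and Cdh1, which were higher at an unadjusted p under 0.05. Krt18 (0.45) overlapped between the genotypes and was not past it, and Krt8 and Krt19 were well above background on none of the arrays. The sum of 5 erythroid markers was 0.53 to 1.11 against 0.22 to 0.41, with Hbb-b1 higher by 2.10 (unadjusted p = 0.017 in limma) and Alas2 above background on none. In cKO most of that sum came from Hbb-b1 alone. Hba-a1, the other globin, went the opposite way and was well above background in 0 cKO and 2 control cultures. It read 10.4 to 30.4 signal units in cKO and 68.2 to 106.8 in control, and was not tested. The sum of 6 B cell markers was 0.58 to 1.30 against 0.41 to 0.65 with Pax5 and Ebf1 above background on none. Most of it came from Cd79b, whose groups overlapped. The sum of 5 myeloid markers was 0.14 to 0.15 against 0.11 to 0.32 with Adgre1 above background on none, and that of 2 CD8 markers was 3.87 to 4.34 against 4.42 to 5.61. The part of these genes in the difference of Mboat2 was not tested.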

How the data were processed

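RNA of 3 cKO and 3 control iTreg cultures was hybridised to 6 arrays. The authors extracted the scans with Agilent Feature Extraction (10.7.3.1 in the file headers, 9.1 in the submitters' processing notes), and the deposited signals are linear intensity values, background-subtracted per the file headers and not normalised between arrays. The authors also deposited a table of log2 values with equal medians across arrays (6.15), which was used as an alternative. Names of genes and positions (mm9) were taken from the annotation that the files carry. Outlier and control spots were left out, spots of a probe were averaged, and log2 signal minus each array's 75th percentile was compared with limma 3.58.1 (R 4.3.3, lmFit and eBayes, Benjamini-Hochberg over 22281 probes, threshold 0.05). A gene is given by its brightest tested probe unless stated. Python 3.11.15, pandas 2.3.3, numpy 2.4.6 and matplotlib 3.10.9 prepared tables and plots, and robust fits used statmod 1.5.0. The steps were tested on simulated data. The number of arrays limits the precision.

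The members, gene lists and tests were chosen with earlier results of these data known. Named genes are all members, in each further list the genes with an adjusted p under 0.05 or otherwise the 2 largest differences (1 in a list of 3 or fewer), the 5 genes most correlated with Mboat2, and the cell type markers. Etnk1 is named as well, beside Etnk2. Alternatives were normexp (offset 50) followed by either quantile or 75th-percentile normalisation, quantile normalisation alone, median scaling, the authors' table, no filter or a filter on all arrays, the methods' t-test, trend and robust fitting, a replicate block, slide as a term, within slide 1, array weights, each array left out, the mean over a gene's probes and an adjusted p under 0.10. The RNA kit and IL-2 dose differ between labels and methods.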

Additional observations from a re-analysis of the deposited data

How the results depend on the processing

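The Mboat2 difference, the value that chose the gene, was 1.86 with normexp and quantile normalisation, 2.17 with normexp and the 75th percentile, 2.45 with slide as a term or within slide 1, and 2.38 to 3.01 with each array left out. Settings that change only the filter, the test or the threshold leave it at 2.76 by construction. The number of tested probes with an adjusted p under 0.05 varied widely: 54 became 115 with normexp and quantile normalisation, 28 with quantile normalisation, 28 with the authors' table, 174 when every array had to be above background, 105 under trend and robust fitting, 457 when the threshold was 0.10 and 2205 under array weights. No probe passed, a count of 0, under normexp scaled to the 75th percentile (1659 at an unadjusted p under 0.05, beside 5120 in the original limma fit), with dim probes kept in (4705), by the methods' t-test (4018) and with slide as a term (1646), and 0 to 1 passed with each array left out (1 without control 1). With the replicate block it was 0 (3627 unadjusted). The replicate numbers share only a label, since the correlations of same-numbered arrays' deviations were -0.14, 0.01 and -0.19. The number of members other than Mboat2 at an unadjusted p under 0.05 was 2, and it was 1 under median scaling, normexp scaled to the 75th percentile or no filter, 0 with the methods' t-test or slide as a term, 4 with array weights and 1 to 3 with each array left out (1 without control 1, 2 or 3). Of all tested probes 7566 had an unadjusted p under 0.05 with array weights, 4493 under median scaling and 2865 to 6465 with each array left out. Of the list genes, Lpin1 among them, 22 had an unadjusted p under 0.05, 13 under that normexp setting and 5 with slide as a term. Signs turned for Agpat1 (-0.0087 under that normexp setting), Agpat5 (-0.15 under the same, -0.0080 with slide as a term and within slide 1, and -0.10 to 0.10 with each array left out) and Cds2 (-0.054 under the same and -0.028 as the mean over its probes). That normexp setting moved the median of all tested probes to 0.11, from -0.04. The causes were not tested. Dim probes, Gpam and Mboat2 probe 3 among them, are limited by signal over background.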
